A study of Mus musculus with 9 samples.

Results

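The genes described here are 32 transcripts of macrophages and monocytes, the phagocytes that patrol the gut wall, measured in distal small intestine. Every mouse had carried Bacteroides thetaiotaomicron, a common gut symbiont that digests plant and host glycans, for 10 days. The members were listed by symbol, and every probe set that the platform annotation assigns to exactly 1 of those symbols was followed, which gave 51 probe sets on Affymetrix arrays. All 32 genes were found among the 18193 genes with such a probe set. After the dimmest 40% of probe sets were set aside, 30 of the 32 genes remained among 13570 tested genes. Itgam, the alpha chain of the complement receptor on myeloid cells, and Ccr2, the receptor that brings monocytes out of the blood, were too dim on every probe set and were not tested.

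There were 9 arrays in 3 groups of 3. Tissue of the Rag1 group is labelled by that gene, whose product starts the rearrangement of antigen receptor genes; the allele is not given. The BP arrays carry the same tissue label, and the meaning of their title, BP, is not stated. The B6 group was labelled wild type. Each RNA came from several whole intestinal segments pooled together. Neither age nor sex is given, nor whether arrays stand for separate mice; the p-values thus cover the spread between samples, which may be technical.

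Gut macrophages descend largely from blood monocytes, which enter the mucosa and mature there under the growth factor receptor Csf1r. They take up bacteria and antibody-coated particles through Fc gamma receptors, of which the activating ones signal through the adaptor chain Fcer1g. These macrophages also make most of the C1q that opens the classical complement pathway. Mice without Rag1 lack mature B and T cells but keep their myeloid cells. Because whole tissue was measured, fewer cells of a type and less RNA per cell cannot be told apart in any of the values that follow.

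Array quality moved with the groups. Shortened RNA raises the 3'/5' ratio of the actin control probe sets. That ratio was 1.53 to 1.77 for Rag1 and 1.76 to 4.17 for B6, but 14.2, 2.43 and 20.2 for BP replicates 1, 2 and 3. The brightest probe set of Xist, a transcript of female cells, had deposited intensities of 5.84 to 24.1 for Rag1, of 36.0, 624 and 1735 for BP and of 1086 to 1539 for B6, so sex and group cannot be told apart between B6 and Rag1. For the tissue label, Epcam, an adhesion protein of all gut epithelium, read at least 3846 on every array. Of 11 granulocyte markers on the array, none was bright enough to be tested. All values per array are quantile-normalized intensities, and differences are on the log2(intensity + 16) scale with their standard error (SE, n = 3 per group).

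Of the members, 4 were higher on the BP arrays than on the Rag1 arrays. They were Ccl8, a chemokine that attracts monocytes and other leukocytes; Wfdc17, a small secreted protein of the whey acidic protein family made by activated macrophages; Pf4, the chemokine platelet factor 4; and Fcgr3, a low-affinity receptor for IgG. To show where in the genome these members lie and what stands before them, the RefSeq promoter sequences of these 4 genes, and of C1qb, are given 5′ to 3′ on build GRCm38.p6, from 250 bases before the start of transcription to 50 after it. Capitals mark matches, on either strand, to GAGGAA, the core of sites for PU.1 and other ETS factors of myeloid cells, and to TATAAA, the TATA box; the searches do not overlap in these windows.
Ccl8 (chr11:82114935-82115234, plus strand): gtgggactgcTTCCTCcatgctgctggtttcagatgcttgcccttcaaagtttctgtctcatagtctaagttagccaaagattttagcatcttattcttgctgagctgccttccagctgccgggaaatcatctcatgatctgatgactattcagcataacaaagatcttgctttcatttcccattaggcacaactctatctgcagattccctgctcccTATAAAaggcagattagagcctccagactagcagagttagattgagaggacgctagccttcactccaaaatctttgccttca
Wfdc17 (chr11:83703806-83704105, plus strand): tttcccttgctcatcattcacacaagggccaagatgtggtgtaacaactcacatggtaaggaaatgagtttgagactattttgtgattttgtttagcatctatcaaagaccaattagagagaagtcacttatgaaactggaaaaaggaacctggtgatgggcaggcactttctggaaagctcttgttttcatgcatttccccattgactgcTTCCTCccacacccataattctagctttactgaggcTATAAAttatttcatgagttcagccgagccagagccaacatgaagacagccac
Pf4 (chr5:90772185-90772484, plus strand): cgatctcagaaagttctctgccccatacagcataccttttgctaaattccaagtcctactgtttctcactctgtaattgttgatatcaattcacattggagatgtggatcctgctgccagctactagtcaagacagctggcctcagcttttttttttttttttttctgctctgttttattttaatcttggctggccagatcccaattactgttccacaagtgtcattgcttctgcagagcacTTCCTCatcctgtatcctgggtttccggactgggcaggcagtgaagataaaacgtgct
Fcgr3 (chr1:171059354-171059653, minus strand): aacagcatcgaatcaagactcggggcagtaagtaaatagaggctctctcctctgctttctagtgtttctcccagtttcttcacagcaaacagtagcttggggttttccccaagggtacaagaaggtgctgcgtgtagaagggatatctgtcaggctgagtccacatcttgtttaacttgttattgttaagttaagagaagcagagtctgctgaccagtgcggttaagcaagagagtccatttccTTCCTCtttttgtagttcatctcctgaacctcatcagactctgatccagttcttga
C1qb (chr4:136886151-136886450, minus strand): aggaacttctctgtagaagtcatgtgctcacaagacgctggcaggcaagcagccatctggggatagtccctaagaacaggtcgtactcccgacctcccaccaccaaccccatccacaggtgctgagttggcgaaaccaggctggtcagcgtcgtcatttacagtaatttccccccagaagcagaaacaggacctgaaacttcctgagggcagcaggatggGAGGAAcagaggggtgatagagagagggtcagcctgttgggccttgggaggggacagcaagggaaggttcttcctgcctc

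Each of the 5 windows held 1 match to GAGGAA, read as TTCCTC on the other strand in all but C1qb. Ccl8 and Wfdc17 also held 1 TATAAA each. Promoters were at hand for 26 of the 32 members, and GAGGAA was found in 16 of them (61.5%), against 28.3% of 27025 promoters of all genes. TATAAA was found in 5 of the 26 (19.2%), against 14.2% of all, and TTCNNNGAA, the letters bound by STAT factors, in 1 of the 26 (3.8%), against 8.5%. A match is a string of letters and does not show that a factor binds there. The table held no promoter for Tyrobp, C1qa, Csf1r, Adgre1, Cd14 or Cd83.

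Comparing BP with Rag1 tissue, which share a source label, asks what the BP condition adds for these genes. At an adjusted p under 0.05 in limma, 4 of 30 tested members rose and none fell, where 1.1% of all tested genes were called higher and 2.17% lower. At an unadjusted p under 0.05 there were 11 members, against 19.1% of all tested genes. Group by group, 10 members had all BP arrays above all Rag1 arrays (10.0% of all genes) and 2 had all BP arrays below (13.1% of all genes). The median difference over the 30 members was 0.264, and 20 were positive, while the median over all tested genes was -0.016. The members were chosen with earlier results known, so these shares describe the list and do not test it.

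Ccl8 read 33.2, 51.3 and 61.4 on the Rag1 arrays, 413, 283 and 858 on the BP arrays and 201, 139 and 224 on the B6 arrays. The groups did not overlap: every BP array lay above every B6 array, and every B6 array above every Rag1 array. Its difference between BP and Rag1 was 2.92 ± 0.36 (adjusted p = 0.00611), the largest of the list. Wfdc17 read 50.3, 50.3 and 60.3 on the Rag1 arrays, 254, 231 and 322 on the BP arrays and 66.6, 74.9 and 102 on the B6 arrays. BP stood well above the other groups, and the difference from Rag1 was 2.02 ± 0.23 (adjusted p = 0.00438). The B6 arrays lay closer to the Rag1 arrays but all above them, at 0.46 ± 0.23 (adjusted p = 0.953). Without Rag1 replicate 1 the call of Ccl8 was lost (2.74 ± 0.41, adjusted p = 0.0521), while that of Wfdc17 held with any single array left out, with adjusted p of at most 0.0438.

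Pf4 read 60.01, 49.8 and 70.0 on the Rag1 arrays, 118, 208 and 193 on the BP arrays and 62.0, 25.9 and 58.8 on the B6 arrays. Only the BP arrays were high, and Rag1 and B6 overlapped; the difference between BP and Rag1 was 1.29 ± 0.30 (adjusted p = 0.0416). The call was close to the threshold and was lost without Rag1 replicate 1 (adjusted p = 0.156), 2 (0.164) or 3 (0.100), without BP replicate 3 (0.106) and without B6 replicate 1 (0.0657) or 3 (0.0682). Pf4 is made above all by megakaryocytes and platelets. Fcgr3 read 74.2, 50.2 and 72.0 on the Rag1 arrays, 162, 188 and 289 on the BP arrays and 88.4, 79.9 and 93.0 on the B6 arrays. Its B6 arrays lay above its Rag1 arrays, at 0.35 ± 0.25 (adjusted p = 0.999), and its BP arrays above all others. The difference between BP and Rag1 was 1.47 ± 0.25 (adjusted p = 0.0159). That call was lost without Rag1 replicate 1 (adjusted p = 0.0815), 2 (0.0859) or 3 (0.0523).

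**Figure D1:**
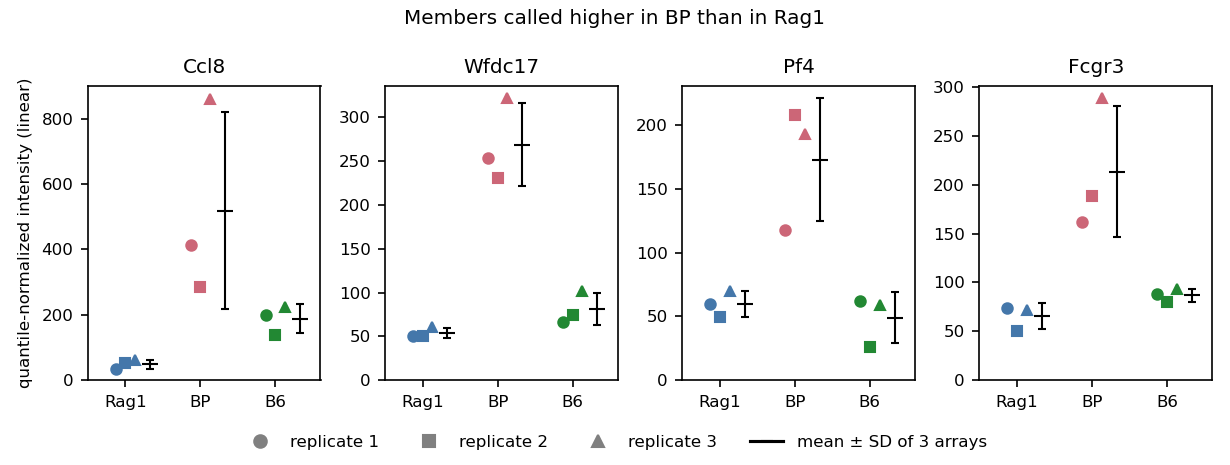
Quantile-normalized intensity (linear axis from 0) of Ccl8, Wfdc17, Pf4 and Fcgr3 on each of the 9 arrays, with group mean ± SD of 3 arrays beside the points. In each panel all 3 BP arrays lie above the 6 others. The B6 arrays of Ccl8, at 139 to 224, and those of Wfdc17 and Fcgr3 lie between the 2 other groups.

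Actin ratio and Xist signal differed among the BP replicates. The 4 genes read above every Rag1 and every B6 array on each of the 3 BP arrays. They were picked by their call between BP and Rag1, which favours such a separation from Rag1. Replicate 2 had the lowest actin ratio of the BP group, 2.43, still above the Rag1 range of 1.53 to 1.77. Replicate 1 had the lowest Xist signal of that group, 36.0. That was above the Rag1 range of 5.84 to 24.1 but near the median deposited intensity of its own array, 30.2. With replicate 2 as the only BP sample, assumed to vary like the other groups, all 4 were called, but so were 2567 of 27022 probe sets as higher and 3371 as lower, against 299 and 729 with all arrays, so these calls say little about the 4 genes. With the actin ratio as a covariate, an alternative chosen after seeing the data, Ccl8 stood at 1.88 ± 0.35 (adjusted p = 0.00451) and Pf4 lost its call (1.29 ± 0.44, adjusted p = 0.0646), where 1804 probe sets were called higher and 2373 lower. Markers of other tissue layers also moved. Of 8 epithelial markers, 1 was called lower, Epcam, with a difference between BP and Rag1 of -0.47 ± 0.11 (adjusted p = 0.0392). All BP arrays lay below all Rag1 arrays for 5 of the 8 (13.1% of all tested genes) and above them for 1, Krt18, a keratin (10.0% of all tested genes). Of the 3 positive differences, Krt18 stood at 0.39 ± 0.19 (adjusted p = 0.290), Cdh1 at 0.01 and Krt8 at 0.05. Of 8 smooth muscle markers, 2 fell, Myh11, a myosin heavy chain, at -1.51 ± 0.25 (adjusted p = 0.0135) and Des, which encodes desmin, at -0.69 ± 0.17 (adjusted p = 0.0485). Of these 8, 3 were positive, and Acta2, smooth muscle actin, was higher on every BP array than on every Rag1 array at 0.35 ± 0.13 (adjusted p = 0.166). None of them was called higher; the shares of all tested genes were 1.1% higher and 2.17% lower. Summed over the epithelial markers, intensities ran from 40035 to 41973 for Rag1 and from 33963 to 36644 for BP; over the smooth muscle markers they ran from 10774 to 12689 and from 9935 to 13026. The part of RNA quality, sex and tissue makeup in the calls of the 4 genes was not tested.

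The remaining Fc receptors and their adaptors read as follows. Fcer1g, the signalling chain shared by activating Fc receptors, read 192, 216 and 210 on the Rag1 arrays, 391, 218 and 566 on the BP arrays and 313, 313 and 368 on the B6 arrays. The Rag1 arrays were lowest throughout, though BP replicate 2 missed their range by little; the difference between BP and Rag1 was 0.78 ± 0.29 (adjusted p = 0.155). Without BP replicate 2 it was 1.14 (adjusted p = 0.000973), and with the actin ratio as a covariate -0.09 (adjusted p = 0.857). Without that array 2214 of all tested probe sets were called higher, against 299 with it, and calls of other members without it are to be read beside that number. Tyrobp, also called DAP12, a signalling adaptor of myeloid and natural killer cell receptors, read 213, 166 and 265 on the Rag1 arrays, 313, 285 and 495 on the BP arrays and 256, 265 and 347 on the B6 arrays. BP did not overlap Rag1, at 0.70 ± 0.26 (adjusted p = 0.155), while B6 overlapped both.

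Trem2, a lipid-sensing receptor that signals through Tyrobp, read 77.4, 69.8 and 76.2 on the Rag1 arrays, 20.1, 253 and 63.5 on the BP arrays and 56.8, 59.9 and 63.4 on the B6 arrays. The BP arrays ranged from the lowest to the highest of all 9, and the difference of 0.02 ± 0.54 (adjusted p = 0.989) turned negative when arrays were centred on the median. Fcgr1, the high-affinity IgG receptor, read 18.2 to 35.7 for Rag1, 29.5 to 52.7 for BP and 19.9 to 42.8 for B6, with groups that overlapped. A dimmer Fcgr1 probe set had all B6 arrays (39.6, 46.5 and 34.7) above all arrays of the other groups. Its difference between B6 and BP was 0.36 ± 0.28 (adjusted p = 0.608), against -0.35 ± 0.30 (adjusted p = 0.649) for the brightest. Fcgr2b, the inhibitory IgG receptor, read 107 to 152 for Rag1, 89.6 to 261 for BP and 99.0 to 167 for B6 on its brightest probe set, with groups that overlapped. A dimmer Fcgr2b probe set had all BP arrays (55.1, 117 and 110) above all Rag1 arrays (36.7, 24.6 and 52.1), at 1.01 ± 0.34 (adjusted p = 0.124), and the other 2 tested stood at 0.75 and 0.10. By their Affymetrix names, the probe sets at 1.01 and 0.75 can share probes with other transcripts. Of the 6 genes of this group, 1 rose between BP and Rag1, all 6 differences were positive and their median was 0.626.

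C1q is assembled from 3 chains. C1qa read 325, 294 and 457 on the Rag1 arrays, 446, 953 and 611 on the BP arrays and 337, 378 and 475 on the B6 arrays. C1qb read 139, 159 and 170 on the Rag1 arrays, 260, 544 and 349 on the BP arrays and 121, 170 and 238 on the B6 arrays. C1qc read 272, 201 and 293 on the Rag1 arrays, 421, 295 and 484 on the BP arrays and 306, 294 and 342 on the B6 arrays. For C1qb and C1qc all BP arrays lay above all Rag1 arrays, and for C1qa BP replicate 1 fell below Rag1 replicate 3. None passed between BP and Rag1: the differences were 0.83 ± 0.28 for C1qa (adjusted p = 0.123), 1.16 ± 0.30 for C1qb (adjusted p = 0.0537) and 0.60 ± 0.23 for C1qc (adjusted p = 0.169). All 3 differences kept a positive sign when arrays were centred on the median and with the values as deposited. C1qb was called in 7 of 22 alternative analyses. Among them were those without BP replicate 1 (1.40 ± 0.30, adjusted p = 0.0445), without BP replicate 2 (0.89 ± 0.24, adjusted p = 0.0212) and with the replicate number as a block (adjusted p = 0.0471). It was not called with the values as deposited (adjusted p = 0.161), with its probe sets averaged (0.0981) or with only the compared groups fitted (0.106). Nor was it called without Rag1 replicate 1 (0.202), 2 (0.166) or 3 (0.126). With the actin covariate the differences were 1.33 for C1qa (adjusted p = 0.0186), 1.64 for C1qb (0.0111) and 0.11 for C1qc (0.825).

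Several members had more than 1 probe set, and these did not always move together. Of 41 tested member probe sets, 6 rose between BP and Rag1 and none fell, where 1.11% of all tested probe sets were called higher. Besides those of the 4 genes above they were a dimmer probe set of C1qb and a dimmer one of Laptm5. The C1qb probe set read 71.1, 67.0 and 103 on the Rag1 arrays, 209, 304 and 336 on the BP arrays and 94.6, 102 and 128 on the B6 arrays, a difference of 1.63 ± 0.25 (adjusted p = 0.0113). The remaining C1qb probe set stood at -0.21 ± 0.37 (adjusted p = 0.816), with BP replicates 1 and 3, the arrays with the highest actin ratios, at 97.7 and 96.2 and BP replicate 2 at 243.

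Laptm5, a lysosomal membrane protein of all blood cells, read 168, 159 and 179 on the Rag1 arrays, 213, 112 and 263 on the BP arrays and 277, 301 and 297 on the B6 arrays with its brightest probe set. Only B6 stood apart from the other groups. The dimmer probe set called above, in contrast, had a difference of 1.22 ± 0.28 between BP and Rag1 (adjusted p = 0.0369), against 0.13 ± 0.27 (adjusted p = 0.852) for the brightest. Another of its probe sets was low on the B6 arrays, at 18.7 to 28.4 against 51.2 to 55.2 on the Rag1 arrays, opposite to the brightest. By their Affymetrix names, these 3 Laptm5 probe sets, and all those of C1qb but the one near 0, can share probes with other transcripts.

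**Figure D2:**
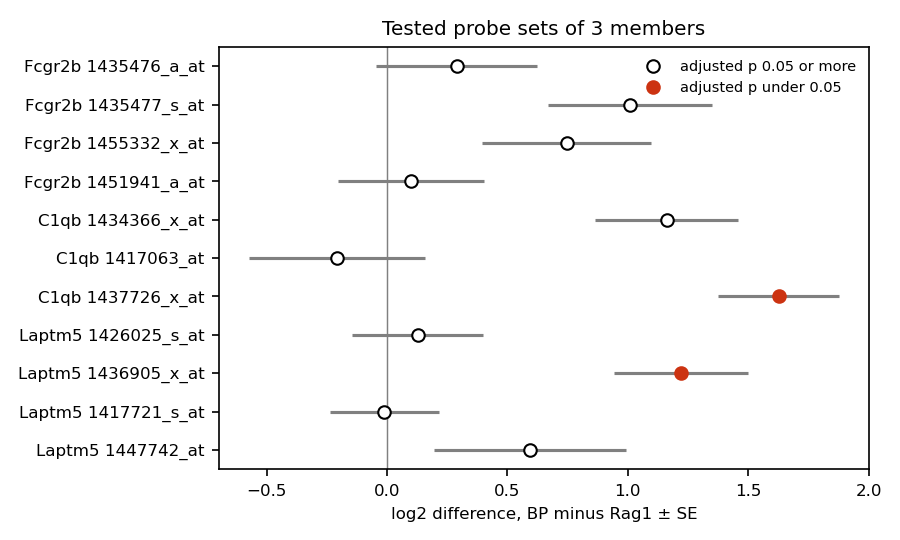
Log2 difference between BP and Rag1 ± SE for the 11 tested probe sets of Fcgr2b, C1qb and Laptm5, each named by symbol and probe set, with filled points where the adjusted p was under 0.05. The probe sets of C1qb run from -0.21 to 1.63 and those of Laptm5 from -0.01 to 1.22, so the reading of these genes depends on the probe set.

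Among receptors and integrins that mark the lineage, no gene was called on its brightest probe set in any comparison. Csf1r, the receptor for the macrophage growth factor, read 772, 736 and 767 on the Rag1 arrays, 1205, 844 and 1347 on the BP arrays and 599, 675 and 844 on the B6 arrays. Its BP arrays lay above all others, replicate 2 by less than 1 unit over B6 replicate 3, and the difference from Rag1 was 0.54 ± 0.20 (adjusted p = 0.162). Its other 2 probe sets stood at 0.12 (adjusted p = 0.851) and 0.30 (adjusted p = 0.457), and the mean over its probe sets at 0.32 (adjusted p = 0.392); without BP replicate 2 it was 0.74 (adjusted p = 0.0042), and with the actin covariate 0.05 (adjusted p = 0.912). Adgre1, which encodes the macrophage surface antigen F4/80, read 117, 147 and 108 on the Rag1 arrays, 108, 117 and 143 on the BP arrays and 111, 82.3 and 152 on the B6 arrays. The groups overlapped fully, and the 95% interval of the difference between BP and Rag1 ran from -0.56 to 0.54. Cd68, a glycoprotein of macrophage lysosomes, read 44.5, 23.9 and 63.3 on the Rag1 arrays, 30.2, 27.8 and 55.3 on the BP arrays and 56.9, 60.3 and 55.5 on the B6 arrays; the interval ran from -0.80 to 0.53.

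Itgax, an integrin of dendritic cells and gut macrophages, read 79.7 to 281 over all 9 arrays, with the lowest and the highest both in BP. Cx3cr1, the fractalkine receptor of resident gut macrophages, read 26.9 to 76.9, Aif1, an actin-binding protein of macrophages, 43.6 to 74.4, and Flt3, a growth factor receptor of dendritic cell precursors, 23.5 to 45.7. None of these 4 separated the groups. The untested Itgam read 10.4 to 30.4 over all arrays, and the brightest Ccr2 probe set read 10.1, 13.0 and 13.8 on the Rag1 arrays, 45.9, 34.3 and 16.1 on the BP arrays and 14.6, 13.5 and 36.3 on the B6 arrays. Its other 3 probe sets did not set the BP arrays above the Rag1 arrays. The median difference between BP and Rag1 over the 8 tested genes of this group, Laptm5 included, was -0.019.

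**Figure D3:**
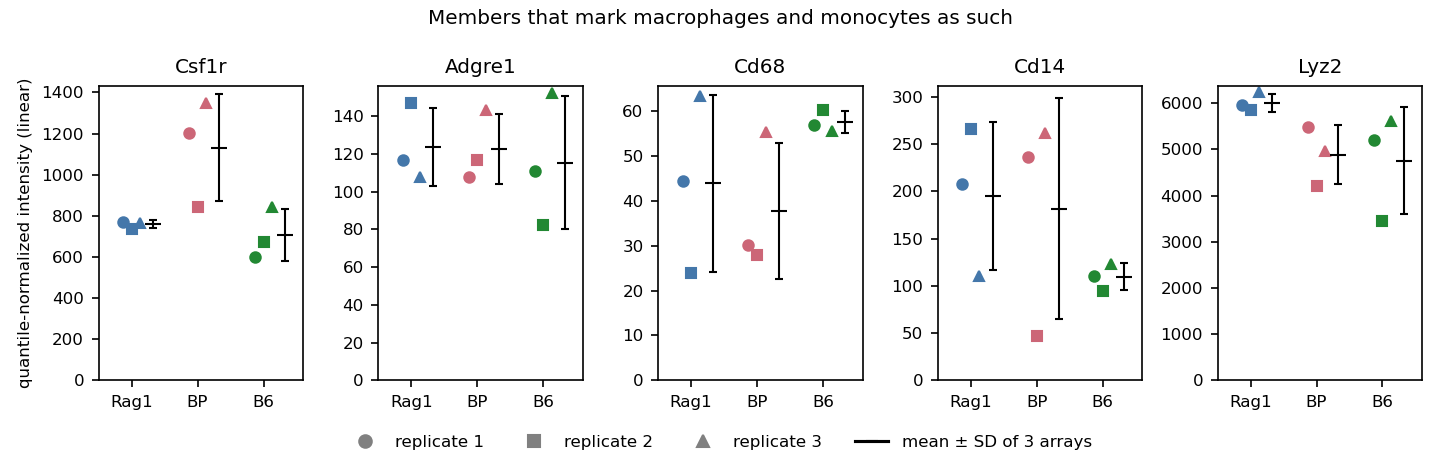
Quantile-normalized intensity (linear axis from 0) of Csf1r, Adgre1, Cd68, Cd14 and Lyz2 on each of the 9 arrays, with group mean ± SD of 3 arrays beside the points. Csf1r is highest on the BP arrays and Lyz2 highest on the Rag1 arrays, while Adgre1, Cd68 and Cd14 overlap between BP and Rag1.

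Among scavenger and pattern receptors, Cd14, which hands bacterial lipopolysaccharide to its signalling receptor, read 207, 266 and 111 on the Rag1 arrays, 236, 47.1 and 261 on the BP arrays and 110, 94.7 and 123 on the B6 arrays. BP replicate 2 was the lowest array of all and the other BP arrays were near the highest, so the difference between BP and Rag1 of -0.28 ± 0.50 (adjusted p = 0.815) became 0.41 without that array and was -1.86 with the actin covariate (adjusted p = 0.0113). Cd163, the haemoglobin scavenger receptor, read 27.6, 14.7 and 28.1 on the Rag1 arrays, 32.8, 43.7 and 29.4 on the BP arrays and 20.9, 12.0 and 49.5 on the B6 arrays; BP lay just above Rag1 and the difference was 0.39 ± 0.34 (adjusted p = 0.585). Clec7a, the receptor for fungal beta-glucan, read 69.8, 36.9 and 117 on the Rag1 arrays, 47.0, 44.8 and 30.4 on the BP arrays and 76.9, 75.6 and 76.7 on the B6 arrays. B6 did not overlap BP, but neither comparison passed. Mrc1, the mannose receptor, read 25.8 to 90.2 and Ms4a7, a membrane protein of macrophages, 34.1 to 159 over all arrays, both with BP replicate 2 as the highest.

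Of 4 genes of lysosomal and killing proteins, 3 had a negative difference between BP and Rag1, and the median was -0.158. All BP arrays lay below all Rag1 arrays for 2 of the 4, Lgmn and Lyz2 (13.1% of all tested genes). Lgmn, a lysosomal protease that processes antigens, read 471, 432 and 702 on the Rag1 arrays, 312, 219 and 299 on the BP arrays and 342, 338 and 438 on the B6 arrays. All BP arrays lay below all arrays of the other groups, with a difference from Rag1 of -0.89 ± 0.24 that missed the threshold (adjusted p = 0.0590). Lgmn was called lower in 6 of 22 alternative analyses. Among them were those with the values as deposited (adjusted p = 0.0493) and without BP replicate 2 (-0.74 ± 0.20, adjusted p = 0.0201). It was not called without Rag1 replicate 1 (0.164), 2 (0.119) or 3 (0.198). Lyz2, the lysozyme of macrophages and neutrophils, read 5950, 5856 and 6232 on the Rag1 arrays, 5479, 4208 and 4957 on the BP arrays and 5203, 3446 and 5620 on the B6 arrays. The Rag1 arrays were highest, at -0.31 ± 0.17 for BP (adjusted p = 0.356) and -0.37 ± 0.17 for B6 (adjusted p = 0.910). With the actin covariate, Lyz2 stood at -0.71 ± 0.20 between BP and Rag1 (adjusted p = 0.0298), its only call in 22 alternatives. Its near-identical relative Lyz1 is a main product of Paneth cells in this tissue, and a part of that gene's transcripts in this signal was not tested. Ctss, a protease of antigen-presenting cells, read 1446 to 1815 on 8 of the arrays and 3092 on BP replicate 2, and Mpeg1, a pore-forming protein of macrophages, read 232 to 406 with full overlap.

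**Figure D4:**
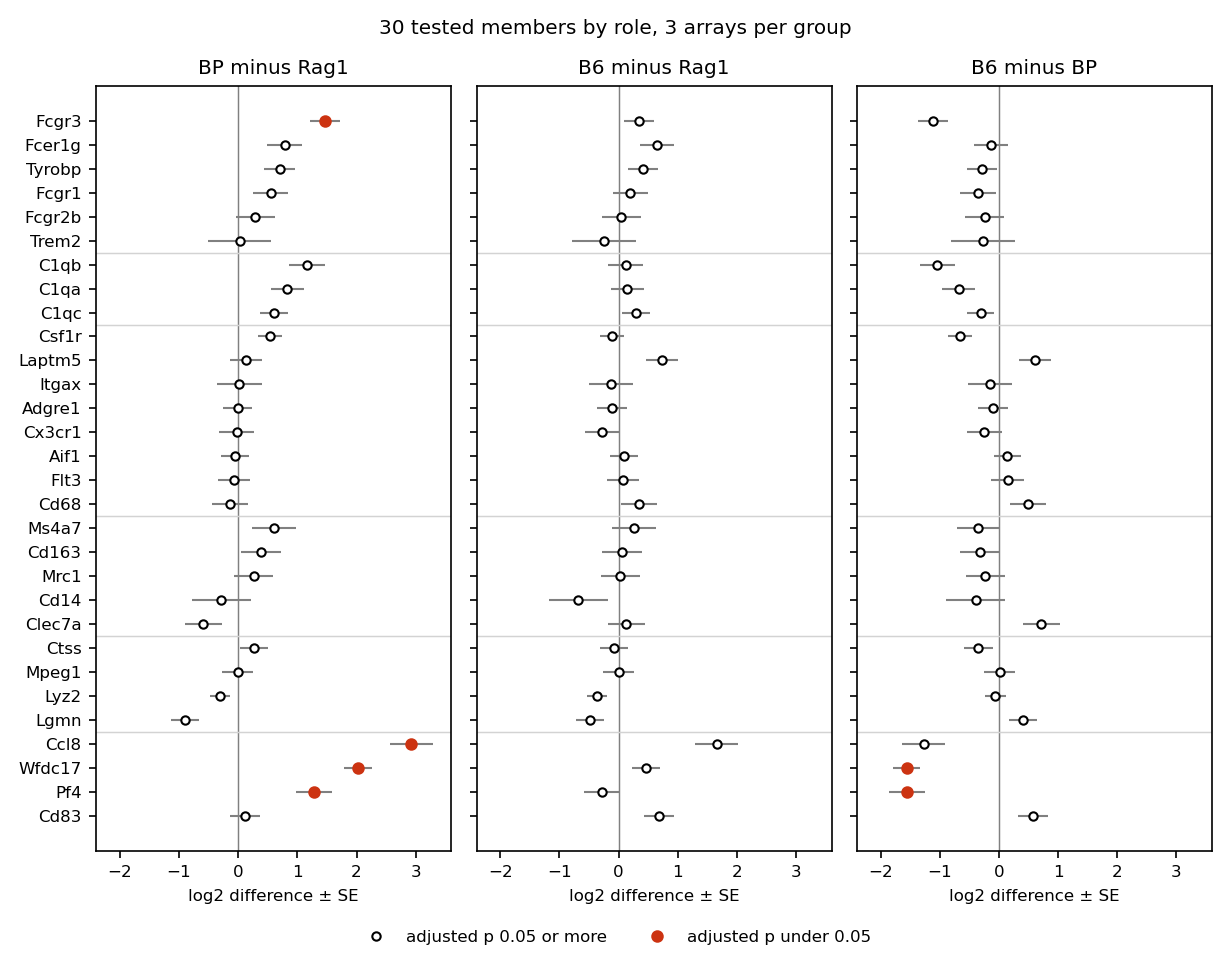
Log2 difference ± SE of the 30 tested members in the 3 comparisons, ordered by role from Fc receptors at the top to secreted proteins at the bottom, with filled points where the adjusted p was under 0.05. Of the members, 4 are filled between BP and Rag1, none between B6 and Rag1 and 2 between B6 and BP.

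The comparison of B6 with Rag1 asks how these myeloid transcripts stand when B and T cells are present. No member was called in limma in either direction, where 0.317% of all tested genes were called higher and 0.0737% lower. At an unadjusted p under 0.05 there were 4 members (Ccl8, Laptm5, Cd83 and Fcer1g), all higher in B6, against 5.81% of all tested genes. All B6 arrays lay above all Rag1 arrays for 7 members (10.5% of all genes) and below them for 2, Trem2 and Lyz2 (8.43% of all genes). The median difference over the 30 members was 0.083, and over all tested genes 0.020.

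Ccl8 had the largest difference here too, 1.66 ± 0.36 (adjusted p = 0.147). It was called without BP replicate 2 (adjusted p = 0.00603), without BP replicate 3 (0.0317) and when only the B6 and Rag1 arrays were fitted (0.00279), where the spread of the BP arrays does not enter. Laptm5 stood at 0.74 ± 0.27 (adjusted p = 0.696), and 0.0287 without BP replicate 2. Cd83, a surface protein of activated antigen-presenting cells and B cells, read 54.9, 55.0 and 54.5 on the Rag1 arrays, 67.4, 51.8 and 62.9 on the BP arrays and 98.9, 69.7 and 134 on the B6 arrays. Only B6 was high, at 0.69 ± 0.25 above Rag1 (adjusted p = 0.691). Fcer1g stood at 0.65 ± 0.29 (adjusted p = 0.881).

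Laptm5, Cd83 and Fcer1g are not made by myeloid cells alone, and lymphocyte markers moved with this comparison. Summed over 9 T cell markers, intensities ran from 244 to 275 for Rag1, from 219 to 336 for BP and from 652 to 708 for B6, and Cd3e and Igha were called higher in B6 (1.99 ± 0.24, adjusted p = 0.00392, and 5.43 ± 0.37, adjusted p = 3.65e-05). Of 12 markers of all leukocytes, 8 differences between BP and Rag1 were positive and 4 negative. In limma none was called higher (1.1% of all tested genes) and 1 lower (2.17%), Rac2 at -0.96 ± 0.23 (adjusted p = 0.0431). Summed over these 12 markers, intensities ran from 1067 to 1135 for Rag1, from 1259 to 1412 for BP and from 1602 to 2329 for B6. By contrast, the sum over 12 macrophage and monocyte markers, all of them members, ran from 1961 to 2154 for Rag1, from 2905 to 3404 for BP and from 1818 to 2439 for B6. Most of that sum came from Csf1r and the 3 C1q genes; of its 11 tested markers, 7 differences between BP and Rag1 were positive and 4 negative, none was called, and the median was 0.387. Only Itgam of these 12 was below the brightness needed for testing. The part of lymphocyte transcripts in the B6 values was not tested.

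Set directly against each other, B6 and BP differed in Wfdc17 and Pf4. Both were lower on the B6 arrays, with differences of -1.56 ± 0.23 (adjusted p = 0.0125) for Wfdc17 and -1.56 ± 0.30 (adjusted p = 0.0469) for Pf4, which makes 2 of 30 members called lower and none higher, where 0.0368% of all tested genes were called lower and 0.545% higher. The call of Wfdc17 was lost without B6 replicate 1 (adjusted p = 0.0747) or 2 (0.0814), and that of Pf4 without any 1 of the Rag1 arrays (0.106, 0.0867 and 0.0894), without BP replicate 3 (0.13) and without any 1 of the B6 arrays (0.106, 0.236 and 0.115). Fcgr3 was lower on every B6 array than on every BP array, at -1.12 ± 0.25, and missed the threshold (adjusted p = 0.0832; 0.0117 without BP replicate 2). Ccl8 stood at -1.27 ± 0.36 (adjusted p = 0.141; 0.0051 without BP replicate 2). Altogether 6 members had all B6 arrays below all BP arrays (7.34% of all genes) and 5 had all B6 arrays above (11.8% of all genes); at an unadjusted p under 0.05 there were 10 members, against 14.0% of all tested genes. This comparison shares its BP arrays with that of BP and Rag1, so the pair is not independent.

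**Figure D5:**
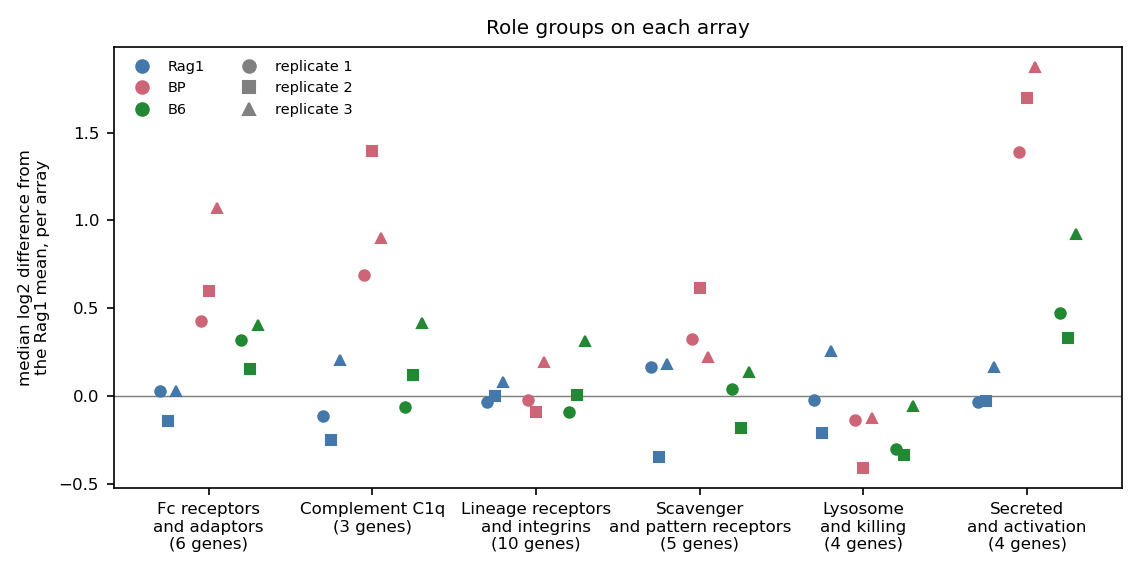
Median log2 difference from the Rag1 mean over the genes of each role group (number in brackets, untested genes included), 1 point per array, coloured by group and shaped by replicate. The BP arrays of the secreted group lie at 1.39 to 1.87 and those of the C1q group at 0.69 to 1.40, while the lineage receptors stay between -0.09 and 0.31 on every array.

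Other genes that draw in, instruct or equip these cells were read from lists of related function. Of 15 tested chemokines, cytokines, growth factors and receptors of monocytes, none was called between BP and Rag1, and 3 of the 15 had an unadjusted p under 0.05, near the 19.1% of all tested genes. Csf1, the ligand of Csf1r, stood at -0.03 ± 0.28 (adjusted p = 0.965) and the monocyte chemokine Ccl2 at -0.39 ± 0.32 (adjusted p = 0.561). All BP arrays lay above all Rag1 arrays for 2 of the 15 (10.0% of all tested genes), Csf2ra at 1.14 ± 0.44 (adjusted p = 0.170) and Ccl12. They lay below for 2 (13.1% of all tested genes), Cx3cl1 at -0.85 ± 0.22 (adjusted p = 0.0589) and Ccl4. None of these 15 was called between B6 and Rag1 either, with 1 at an unadjusted p under 0.05 (5.81% of all genes), nor between B6 and BP, with 3 (14.0% of all genes). In the RefSeq gene order of assembly GRCm38.p6, Ccl8 lies beside Ccl12, Ccl11, Ccl7 and Ccl2, Wfdc17 beside Ccl4, Ccl3, Ccl6 and Ccl9, and Pf4 between Ppbp and Cxcl3, in chemokine clusters. Of the 10 nearest protein-coding genes of each, 5, 7 and 6 were tested, and none was called between BP and Rag1. Of all tested genes, 1.1% were called higher and 2.17% lower, so a lack of calls among so few neighbours says little. Ccl12 stood at 0.48, Ccl11 at -0.69, Ccl4 at -0.89 and Cxcl3 at 0.90. Of the 10 nearest to Fcgr3, 6 were tested and 1 was called. That was Sdhc, a subunit of succinate dehydrogenase, which fell by 0.61 (adjusted p = 0.0377). The receptor gene Fcgr4 stood there at 1.08 (adjusted p = 0.105) and Fcgr2b at 0.29.

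Of 11 tested transcription factors of the macrophage lineage, 1 rose and 2 fell between BP and Rag1, where 1.1% of all tested genes were called higher and 2.17% lower. At an unadjusted p under 0.05 there were 5 of the 11, against 19.1% of all. Cebpb, a factor of inflammatory and acute-phase genes, read 151, 150 and 112 on the Rag1 arrays, 237, 308 and 347 on the BP arrays and 242, 207 and 207 on the B6 arrays, a difference between BP and Rag1 of 1.02 ± 0.22 (adjusted p = 0.0309). Cebpa, a factor of myeloid cells and of metabolic tissues, read 493, 711 and 659 on the Rag1 arrays and 334, 261 and 387 on the BP arrays, a difference of -0.89 ± 0.21 (adjusted p = 0.0409). Irf8, a factor of monocytes, dendritic cells and B cells, read 913, 1074 and 865 on the Rag1 arrays, 424, 470 and 389 on the BP arrays and 912, 1677 and 983 on the B6 arrays. It fell between BP and Rag1 by 1.12 ± 0.23 (adjusted p = 0.0257) and was higher in B6 than in BP by 1.39 ± 0.23 (adjusted p = 0.0218). Spi1, which encodes PU.1, ranged from 48.9 to 94.9 in Rag1 and read 145, 42.6 and 260 on the BP arrays, at 0.74 ± 0.49 (adjusted p = 0.439). These factors are also made outside the macrophage lineage, epithelium included.

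Clearance and scavenger genes (14 tested) and general lysosomal genes (8 tested) held no called member in any comparison; between BP and Rag1, 3 and 2 of them had an unadjusted p under 0.05, against 19.1% of all tested genes. Their median differences between BP and Rag1 were -0.006 and 0.001. Mertk, a receptor for dying cells, stood at 0.11 ± 0.21 (adjusted p = 0.827) and Siglec1, a sialic acid receptor of resident macrophages, at 0.03 ± 0.28 (adjusted p = 0.971). All BP arrays lay below all Rag1 arrays for 2 of the 14 clearance genes (13.1% of all tested genes) and above them for none (10.0%). The 2 were Apoe at -1.13 ± 0.31 (adjusted p = 0.0673) and Axl at -0.82 ± 0.22 (adjusted p = 0.0648). Of the 14 differences, 7 were positive and 7 negative. Dendritic cell markers (7 tested) and mast cell markers (3 tested) had no called member in any comparison either, with 0 and 1 at an unadjusted p under 0.05 between BP and Rag1.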

How the data were processed

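Each of the 9 Affymetrix arrays had received biotinylated cRNA, with 20 µg of total RNA as the input, per the labels' protocols. The authors deposited linear intensities per probe set, from 1 to 21694; the software and any scaling are not given in the sources used here. Groups and replicate numbers came from sample titles, and 0 columns stayed unmatched. The intensities were quantile-normalized, 16 was added and log2 taken, which understates differences of dim genes. Detection calls were not used. The 64 control probe sets and the lowest 40% by mean over all arrays (an intensity of about 23.7) were left out, which kept 27022 of 45101 probe sets. The platform annotation named 1 gene for 34945 probe sets, several for 932 and none for 9160; the gene IDs of all 32 members were found in RefSeq. A gene was represented by its brightest tested probe set.

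Differences were tested in 1 fit of all 9 arrays with limma 3.58.1 under R 4.3.3 (tables were read with the package data.table, version 1.17.8), with a mean for each group, an intensity trend in the empirical Bayes step, two-sided p-values, with Benjamini-Hochberg adjustment over all 27022 tested probe sets and a threshold of 0.05. The number of arrays limits the precision. The fit was tried on simulated data with the same spread in all groups for each probe set. In the measured data the median SD over tested probe sets on the log2 scale was 0.212 for Rag1, 0.438 for BP and 0.228 for B6. That trial therefore does not show how the fit handles the wider spread of the BP arrays. Members and lists were chosen with earlier results of these data known. Values per array are given for members called or with non-overlapping groups in any comparison and for defining markers, the others by range; neighbouring genes, and the uncalled genes named from the related lists, were chosen once their values were known. The alternatives were other scalings, pseudocounts of 1 and 64, other filters, fits of the compared groups alone, a replicate block, no trend, array weights, averaged probe sets, arrays left out and an actin covariate.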

Additional observations from a re-analysis of the deposited data

How the results depend on the processing

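The count of 4 members called higher between BP and Rag1 was 2 when only the compared groups were fitted, 9 with array weights, 8 without BP replicates 1 and 3, and 1 to 9 with any single array left out: 1 without Rag1 replicate 1, 2 without Rag1 replicate 2 or 3, and 9 without BP replicate 2. The count of 0 called lower was 1 with the values as deposited (3 higher), with the lowest 60% left out and with array weights, 2 without BP replicates 1 and 3, 3 with the actin covariate, and 0 to 1 with single arrays left out. In every alternative with a member called lower, Lgmn was among those called, and with the covariate Cd14 and Lyz2 were called lower too. The median difference of 0.264 over the members was 0.079 with the covariate. Between B6 and Rag1, the count of 0 higher was 2 in the fit of these groups alone and without BP replicates 1 and 3, 4 with array weights, 1 with the covariate, and 0 to 2 with single arrays left out (2 without BP replicate 2, 1 without BP replicate 3). Between B6 and BP, the 2 called lower were 1 with the values as deposited, the pseudocount 1, no filter or no trend, 0 in the fit of these groups alone, 5 with array weights, 7 without BP replicates 1 and 3, 6 with the covariate, and 0 to 6 with single arrays left out: 0 without B6 replicate 1 or 2, 6 without BP replicate 2, and 1 without any single Rag1 array, BP replicate 3 or B6 replicate 3. The count of 0 higher was 1 without BP replicates 1 and 3 and with the covariate, and the median of -0.259 was -0.021 and 0.024.

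The labels do not say that replicate numbers pair the arrays, and deviations of same-numbered arrays from their group means correlated at -0.185 to 0.233. With the replicate block, Pf4 lost both calls (adjusted p = 0.0577 and 0.0734), which left 1 member called lower between B6 and BP, and C1qb was called higher between BP and Rag1.

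Among the members followed through the alternatives, some changed sign. Between BP and Rag1, Trem2 was at -0.081 with median centring, -0.057 as deposited, -0.101 with the pseudocount 1, -0.564 with array weights and -0.754 to 0.696 with single arrays left out; Cd14 at 0.214 with array weights and -0.663 to 0.406; Ctss at -0.063 to 0.476; and Fcer1g at -0.089 with the covariate. Between B6 and BP, Trem2 was at 0.285 with array weights and -0.946 to 0.504 with single arrays left out, Laptm5 at -0.259 with its probe sets averaged, and Cd14 at 0.985 without BP replicates 1 and 3 and 0.665 with the covariate. The causes were not tested. Wfdc17 between BP and Rag1 was called in all 22 alternatives, Ccl8 in 21, Fcgr3 in 18 and Pf4 in 8, with the highest adjusted p at 0.0438, 0.0521, 0.0859 and 0.164. Median centring set the median of all tested genes between B6 and BP at 0.151, against 0.041, and the values as deposited set that between B6 and Rag1 at -0.086, against 0.020. The calls over all tested probe sets moved with those of the members. Between BP and Rag1 there were 299 higher and 729 lower; the higher calls numbered 33 in the fit of these groups alone, 1459 with array weights, 2214 without BP replicate 2, 2567 without BP replicates 1 and 3, 1804 with the covariate, and 8, 7 and 55 without Rag1 replicates 1, 2 and 3. Median centring gave 158 higher and 1054 lower. Between B6 and BP the 16 lower calls were 1080 without BP replicate 2, and between B6 and Rag1 the 70 higher calls were 225.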
